A study of Homo sapiens with 18 samples.

Results

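Genes for 10 enzymes that make androgens or convert them into one another were followed in 16D, a prostate cancer cell line labelled castration-resistant, meaning that it grows despite low androgen. The enzymes were HSD3B1, STS, AKR1C1, AKR1C2, AKR1C3, SRD5A1, SRD5A3, HSD17B4, HSD17B6 and HSD17B11. They were taken by symbol from an RNA-seq table of 26900 gene symbols, and 10 of 10 were found. Lentivirus had brought in Cas9 with a guide RNA, either 1 of 2 guides against OGDHL (sgOGDHL_1 and sgOGDHL_2) or the control guide sgAAVS, which targets a safe-harbour site. OGDHL encodes a relative of a subunit of the mitochondrial 2-oxoglutarate dehydrogenase. For each guide, cells spent 6 weeks in 10 µM enzalutamide (Enza), an antiandrogen, or in the vehicle DMSO. The 6 groups were sgOGDHL_1 Enza, sgOGDHL_1 DMSO, sgOGDHL_2 Enza, sgOGDHL_2 DMSO, sgAAVS Enza and sgAAVS DMSO, with 3 libraries each and 18 in all. Every group, the controls included, carried Cas9 and a guide and grew in medium with fetal bovine serum. The labels do not say whether a guide's cells were a pool or a clone, or that the libraries of a group came from separate cultures. The p-values therefore measure only the spread between these libraries, which may be technical.

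As background, prostate tumours under castration can make their own androgens from adrenal precursors. Steroid sulfatase (STS) frees dehydroepiandrosterone from its sulfate, HSD3B1 carries out the step that commits it to the androgens, and SRD5A1 reduces the ring that distinguishes dihydrotestosterone. AKR1C3 makes testosterone from androstenedione, AKR1C2 removes dihydrotestosterone by reducing it, and AKR1C1, known best for inactivating progesterone, can reduce it too. HSD17B6 runs the other way and oxidises an inactive diol back to dihydrotestosterone, while HSD17B11 oxidises such diols to weaker ketosteroids. HSD17B4 is a peroxisomal enzyme of fatty acid oxidation that can also oxidise active steroids, and SRD5A3, named for its likeness to the steroid reductases, is best known for making dolichol for protein glycosylation.

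Levels are given in TPM, which divides reads by transcript length and scales each library to the same total, so that levels of different enzymes can be set side by side. TPM keeps no record of depth, so the depth is unknown and no counting interval can be given. Mitochondrially encoded transcripts took 50.1% to 73.8% of the TPM of a library, which moves the TPM of every other gene. All values below were therefore rescaled between libraries by median-of-ratios factors (0.622 to 1.28) and are called rescaled TPM. Changes were tested with limma on log2(rescaled TPM + 1), a scale that understates the change of low genes, with Benjamini-Hochberg adjustment over all genes tested and a threshold of 0.05. The filter of 1 deposited TPM in 3 libraries left 13416 symbols and 4 of the 10 enzymes, namely SRD5A3, HSD17B4, SRD5A1 and HSD17B11. HSD17B11 passed only through 4 DMSO libraries (3 of sgAAVS and 1 of sgOGDHL_1), the groups where it is high. The other 6 enzymes were under 1 TPM in each of the 18 libraries. They are given by library and by the ratio of group means, and their adjusted p comes from a limma fit of all 26900 symbols without a filter. In bulk RNA, fewer cells with a transcript and less of it per cell cannot be told apart.

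The checks of the series bear on several results. OGDHL had 1.04, 1.14 and 0.954 rescaled TPM in sgOGDHL_1 Enza and 1.78, 1.84 and 1.83 in sgOGDHL_2 Enza, against 3.18, 3.43 and 3.15 in sgAAVS Enza. In DMSO it had 0.812, 0.936 and 1.27 in sgOGDHL_1 and 2.41, 2.71 and 2.44 in the libraries labelled sgOGDHL_2, against 1.97, 1.97 and 1.94 in sgAAVS, so the DMSO libraries labelled sgOGDHL_2 went against their label at the mRNA level. These 3 libraries also stood apart otherwise, with 1407 to 1630 table rows at 0 against 3042 to 4498 in the other 15 libraries. The androgen-responsive gene KLK3 (prostate-specific antigen) averaged 849 rescaled TPM in sgOGDHL_1 Enza and 381 in sgOGDHL_1 DMSO, but 56.4 in sgAAVS Enza and 346 in sgAAVS DMSO. By limma KLK3 changed with Enza by 1.16 in sgOGDHL_1, by -1.16 in sgOGDHL_2 and by -2.60 in sgAAVS cells. Of the luminal prostate markers 7 of 7 passed the filter, against 0 of 5 markers of steroid-making tissue (STAR, CYP11A1, CYP17A1, CYP21A2 and CYP11B1), whose summed level was 0.920 to 1.28 rescaled TPM in sgOGDHL_2 DMSO and at most 0.344 in any other library; STAR was above 0 in every library and each of the other 4 was at 0 in some.

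The enzymes fell into tiers of level. SRD5A3 was the most abundant in every library, at 7.53 to 12.9 rescaled TPM, followed by HSD17B4 at 2.96 to 4.59 and SRD5A1 at 1.81 to 2.95, whose ranges did not overlap with each other. HSD17B11 (0.292 to 1.16), HSD3B1 (0.116 to 0.921) and HSD17B6 (0.158 to 0.550) came next with ranges that overlapped. STS lay between 0.0810 and 0.167, AKR1C1 between 0.00830 and 0.167, AKR1C3 between 0.00191 and 0.156 and AKR1C2 between 0.0105 and 0.112 rescaled TPM. The median over libraries of HSD3B1 exceeded that of 48.6% of all symbols, and that of AKR1C2 exceeded 26.9%. The AKR1C transcripts were thus present at a small part of the level of the reductases in every group, and the number of reads behind a value there is unknown.

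AKR1C1, AKR1C2 and AKR1C3 lie side by side on chromosome 10 (GENCODE 29 on GRCh38: 4963253 to 4983283 on the plus strand, 4987400 to 5018031 on the minus strand and 5035354 to 5107686 on the plus strand). Of the stretches of 50 bases in protein-coding AKR1C2 transcripts, 47.0% also occur in AKR1C1, and 26.6% of those of AKR1C1 occur in AKR1C2. How the submitters' counting split reads between the pair is not given in the sources used here, so each of their levels is uncertain; the sum of the pair is given too, and since TPM divides by transcript length it too can move with the split. AKR1C3 shared 9.55% and HSD3B1 7.96% of such stretches with other genes, HSD17B11 3.72% and the remaining enzymes at most 1.12%. HSD3B1 lies on chromosome 1 (119507198 to 119515054, plus), STS on chromosome X (7219456 to 7354810, plus), HSD17B6 on chromosome 12 (56752161 to 56787790, plus) and HSD17B11 on chromosome 4 (87336610 to 87391386, minus). SRD5A3 lies on chromosome 4 (55346109 to 55373096, plus), SRD5A1 on chromosome 5 (6633343 to 6674386, plus) and HSD17B4 on chromosome 5 (119452443 to 119637199, plus). Whether reads were counted by strand is not given either, so that transcripts overlapping these genes on the other strand may add to them.

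The promoters of the enzymes differ in a feature that the choice of genes did not use. The windows below run from 250 bases before to 50 bases after a start site in RefSeq (GRCh38.p14), printed 5′ to 3′ on the gene's strand with each CpG in capitals. They are shown for the 4 genes with the largest ratios of Enza to DMSO in sgAAVS cells, for HSD17B11, with the smallest ratio, and for SRD5A3, the most abundant.
HSD3B1 (chr1:119506953-119507252, plus strand): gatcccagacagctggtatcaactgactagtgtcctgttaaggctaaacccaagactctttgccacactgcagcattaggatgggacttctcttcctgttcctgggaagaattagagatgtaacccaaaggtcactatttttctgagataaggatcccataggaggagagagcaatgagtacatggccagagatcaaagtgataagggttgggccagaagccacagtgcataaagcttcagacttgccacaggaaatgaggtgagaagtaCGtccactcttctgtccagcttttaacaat
AKR1C1 (chr10:4963165-4963464, plus strand): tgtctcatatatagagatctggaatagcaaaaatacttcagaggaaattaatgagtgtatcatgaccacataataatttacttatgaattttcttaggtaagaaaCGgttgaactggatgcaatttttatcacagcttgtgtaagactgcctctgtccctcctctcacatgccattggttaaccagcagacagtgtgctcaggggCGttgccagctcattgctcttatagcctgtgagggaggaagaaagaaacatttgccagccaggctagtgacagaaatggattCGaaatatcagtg
AKR1C2 (chr10:5003808-5004107, minus strand): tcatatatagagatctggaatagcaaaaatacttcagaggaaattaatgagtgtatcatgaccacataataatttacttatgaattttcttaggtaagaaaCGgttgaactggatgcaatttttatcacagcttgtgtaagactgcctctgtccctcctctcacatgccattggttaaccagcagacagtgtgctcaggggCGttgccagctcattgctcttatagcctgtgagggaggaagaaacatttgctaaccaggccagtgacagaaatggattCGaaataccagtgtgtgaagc
AKR1C3 (chr10:5094164-5094463, plus strand): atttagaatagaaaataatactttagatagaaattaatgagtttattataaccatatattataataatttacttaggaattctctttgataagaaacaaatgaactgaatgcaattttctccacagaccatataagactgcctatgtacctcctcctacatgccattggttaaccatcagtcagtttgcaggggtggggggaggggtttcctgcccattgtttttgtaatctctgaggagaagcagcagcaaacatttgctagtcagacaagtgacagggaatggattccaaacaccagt
HSD17B11 (chr4:87391139-87391438, minus strand): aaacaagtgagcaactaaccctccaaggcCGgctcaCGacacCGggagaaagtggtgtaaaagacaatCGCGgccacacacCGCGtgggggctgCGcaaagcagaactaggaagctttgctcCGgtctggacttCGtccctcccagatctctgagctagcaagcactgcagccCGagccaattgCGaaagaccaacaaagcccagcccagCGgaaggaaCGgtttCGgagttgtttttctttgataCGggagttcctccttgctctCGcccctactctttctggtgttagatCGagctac
SRD5A3 (chr4:55345992-55346291, plus strand): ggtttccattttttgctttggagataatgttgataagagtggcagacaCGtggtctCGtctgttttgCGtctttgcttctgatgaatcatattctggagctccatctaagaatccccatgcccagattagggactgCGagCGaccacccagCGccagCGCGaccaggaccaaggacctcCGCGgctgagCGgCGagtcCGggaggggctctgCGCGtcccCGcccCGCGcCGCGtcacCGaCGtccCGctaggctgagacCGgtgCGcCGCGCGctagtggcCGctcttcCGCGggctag

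Among 35116 promoters of this length the median held 14 CpG. AKR1C3 held 0, HSD3B1 1, AKR1C1 and AKR1C2 3 each and STS 5, while HSD17B11 held 18, HSD17B4 19, SRD5A3 31 and SRD5A1 33, so in these windows, 1 for each of 9 enzymes (none was used for HSD17B6), the 4 that passed the filter on level were above the median. HSD17B11 is among these 4 only through DMSO libraries where it is high. Its median level over libraries, 0.479 rescaled TPM, was close to the 0.453 of HSD3B1, so the CpG count did not follow level for this pair. RefSeq lists other start sites for STS, and 1 of their windows held 23 CpG, so its place depends on the window. The AKR1C1 and AKR1C2 windows were identical at 98.6% of 292 aligned bases, with the longest identical run 245 bases, whereas AKR1C3 matched AKR1C1 at 79.9% of 283. Both strands were searched for motifs. The antioxidant response element, searched as TGACNNNGC and bound by NRF2, was in 13.4% of all promoters, in the SRD5A3 window and in a window of STS not printed here. The full androgen response element, searched as AGAACA, any 3 bases and TGTTCT, was in 1 of all 35116 and in none of the enzymes' windows. Its half-site AGAACA (14.8% of all), the TATA box TATAAA (11.5%) and the forkhead motif TGTTTAC (3.42%) were in none of the 6 windows printed here. Among the windows not printed, the half-site was in STS and the TATA box in STS and in a second AKR1C3 window. No match says only that these letters are not in the window.

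Enzalutamide for 6 weeks moved the enzymes in both directions. In sgAAVS cells the AKR1C genes and HSD3B1 were higher in Enza than in DMSO, HSD17B11 and HSD17B6 were lower by more than 2-fold, and both reductases were lower by less. All 3 Enza libraries lay above all 3 DMSO libraries for 6 of the 10 enzymes (HSD3B1, AKR1C1, AKR1C2, AKR1C3, STS and HSD17B4) and below them for 4, against 31% and 24.5% of all symbols. The split of 6 and 4 also held in sgOGDHL_1 cells, where 19.5% and 19.2% of symbols were so separated, and in sgOGDHL_2 cells (28% and 43.7%), although STS and SRD5A3 took the opposite sides there. By limma, 4 of the 4 filtered enzymes were called in sgAAVS cells and in sgOGDHL_1 cells and 3 of 4 in sgOGDHL_2 cells. Without HSD17B11, which entered only through the DMSO libraries where it is high, the counts were 3 of 3, 3 of 3 and 2 of 3. The share called among all 13416 symbols was 52.2%, 48.5% and 74.4%. Without a filter, 10, 10 and 9 of the 10 were called, against 39.1%, 34.1% and 63.4% of 26900 symbols, so a call by itself is common here. The 3 drug comparisons use separate libraries.

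**Figure D1:**
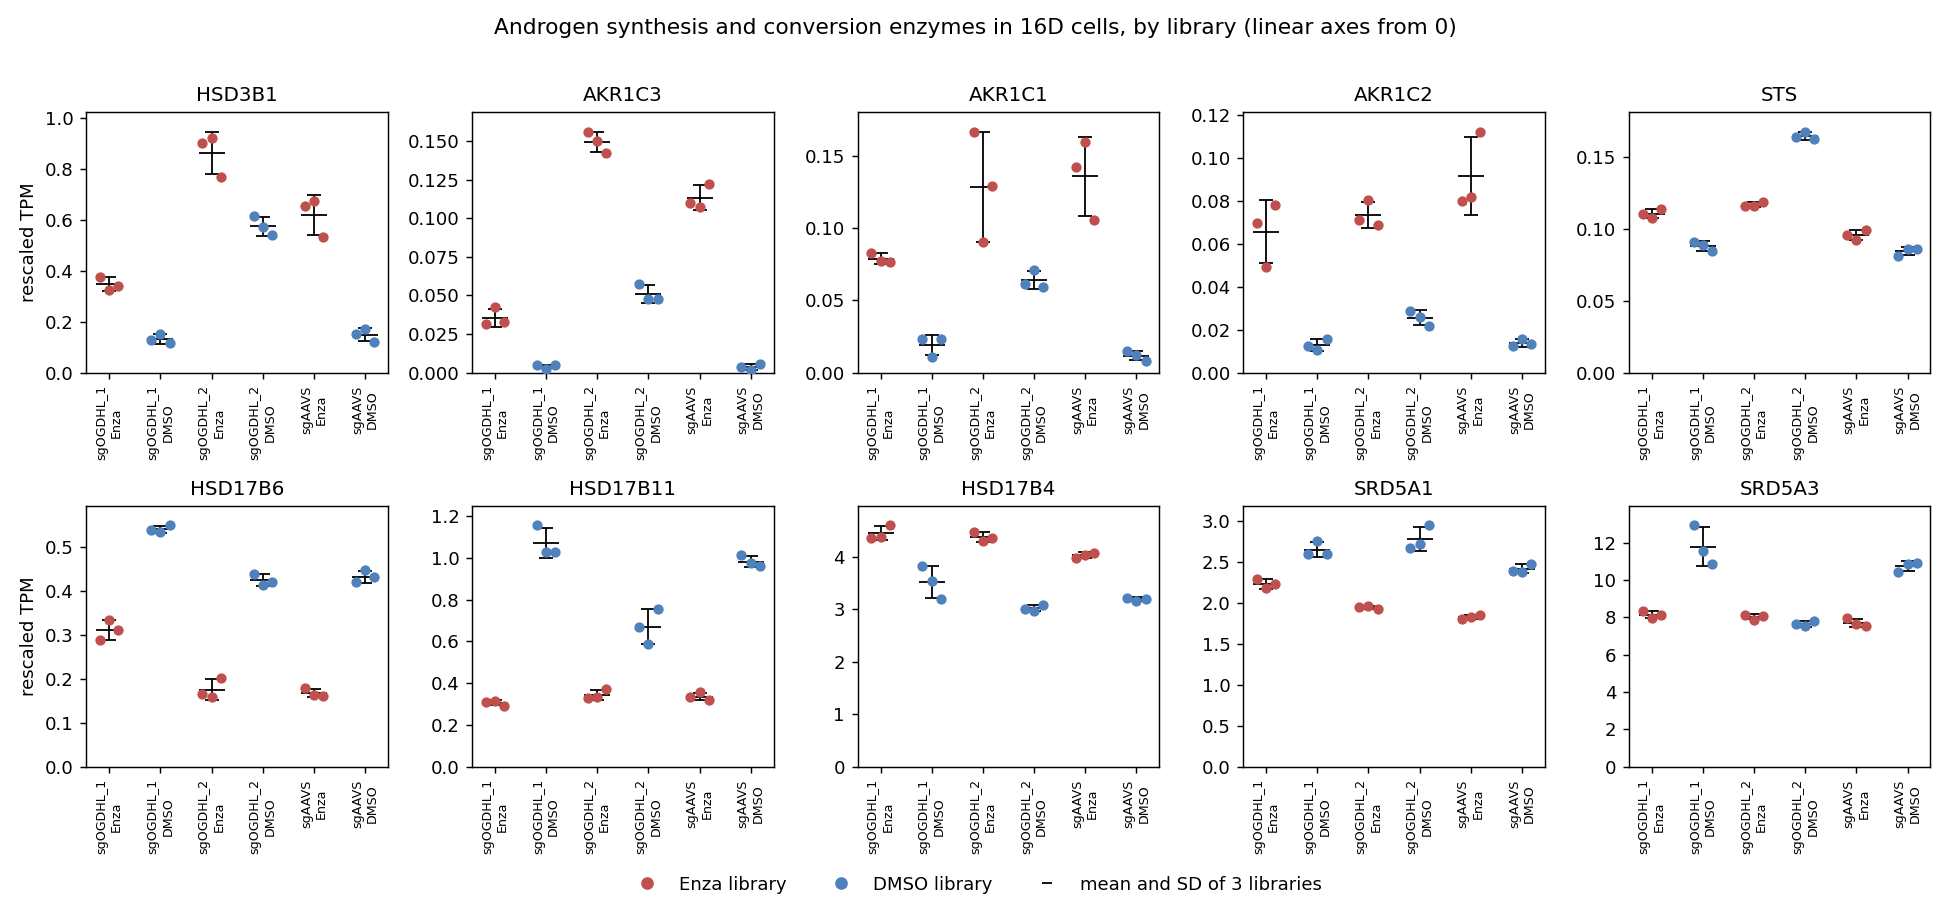
Rescaled TPM of the 10 enzymes (one panel each, linear axes from 0) in 3 libraries of each group; points are libraries, red in Enza and blue in DMSO, and black bars the mean and SD. AKR1C3 sits at 0.107 to 0.122 in sgAAVS Enza and at 0.00191 to 0.00589 in sgAAVS DMSO, with sgOGDHL_1 Enza between them at 0.0314 to 0.0424.

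HSD3B1, the enzyme that opens the route from adrenal precursors, was the most abundant of the enzymes that were higher in Enza and under 1 TPM. It had 0.376, 0.323 and 0.339 rescaled TPM in sgOGDHL_1 Enza, against 0.129, 0.153 and 0.116 in sgOGDHL_1 DMSO. The libraries labelled sgOGDHL_2 had 0.900, 0.921 and 0.769 in Enza, against 0.613, 0.570 and 0.539 in DMSO. With the control guide it had 0.652, 0.675 and 0.530 in Enza, against 0.153, 0.171 and 0.122 in DMSO. The 2 lowest groups, sgOGDHL_1 DMSO and sgAAVS DMSO, overlapped; sgOGDHL_1 Enza stood alone above them, sgOGDHL_2 DMSO overlapped with sgAAVS Enza, and sgOGDHL_2 Enza was above every other library. The ratio of mean Enza to mean DMSO was 2.61 in sgOGDHL_1, 1.5 in sgOGDHL_2 and 4.16 in sgAAVS cells. By limma without a filter HSD3B1 rose with the drug in sgOGDHL_1 (0.25 ± 0.0365, adjusted p = 1.13e-04), in sgOGDHL_2 (0.24 ± 0.0365, adjusted p = 4.48e-05) and in sgAAVS cells (0.49 ± 0.0365, adjusted p = 7.66e-08), where ± is the standard error of the change. The call in sgOGDHL_2 was lost on TPM as deposited (0.11, adjusted p = 0.0892).

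STS, which frees steroids from their sulfates, moved by little. It had 0.110, 0.107 and 0.113 rescaled TPM in sgOGDHL_1 Enza, against 0.0908, 0.0884 and 0.0842 in sgOGDHL_1 DMSO. The values were 0.115, 0.116 and 0.119 in sgOGDHL_2 Enza, against 0.164, 0.167 and 0.162 in sgOGDHL_2 DMSO, and 0.0956, 0.0921 and 0.0989 in sgAAVS Enza, against 0.0810, 0.0857 and 0.0858 in sgAAVS DMSO. The SD within a group was at most 0.00342, and the sgOGDHL_2 DMSO libraries were the highest of the 18. By limma without a filter STS rose in Enza in sgOGDHL_1 (0.029 ± 0.00349, adjusted p = 1.61e-05) and in sgAAVS cells (0.015 ± 0.00349, adjusted p = 0.00316) and fell in sgOGDHL_2 cells (-0.06 ± 0.00349, adjusted p = 1.96e-09). The call in sgAAVS cells was lost on TPM as deposited (0.0096, adjusted p = 0.714), with a pseudocount of 0.01 (0.16, adjusted p = 0.10) and with quantile normalization (-0.0017, adjusted p = 0.867), and quantile normalization turned the change in sgOGDHL_2 cells round (0.013, adjusted p = 0.0895). No direction of STS with the drug thus held for all guides and scalings.

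AKR1C3, which makes testosterone, had the largest relative difference between drug and vehicle of the 10 enzymes. It had 0.0314, 0.0424 and 0.0325 rescaled TPM in sgOGDHL_1 Enza, against 0.00468, 0.00252 and 0.00464 in sgOGDHL_1 DMSO. The libraries labelled sgOGDHL_2 had 0.156, 0.150 and 0.142 in Enza, against 0.0577, 0.0475 and 0.0477 in DMSO. With the control guide it had 0.110, 0.107 and 0.122 in Enza, against 0.00370, 0.00191 and 0.00589 in DMSO. The 2 lowest groups, sgOGDHL_1 DMSO and sgAAVS DMSO, overlapped and were close to 0, and the other 4 groups were each separate from their neighbours, in the order sgOGDHL_1 Enza, sgOGDHL_2 DMSO, sgAAVS Enza and sgOGDHL_2 Enza. The ratio of mean Enza to mean DMSO was 8.98 in sgOGDHL_1, 2.93 in sgOGDHL_2 and 29.5 in sgAAVS cells, and the first and last of these rest on DMSO levels near 0. Without a filter limma called the rise in sgOGDHL_1 (0.045 ± 0.00592, adjusted p = 4.65e-05), in sgOGDHL_2 (0.13 ± 0.00592, adjusted p = 1.52e-10) and in sgAAVS cells (0.15 ± 0.00592, adjusted p = 1.00e-10). With a pseudocount of 0.01, closer to the level of the gene, the changes were 1.70, 1.39 and 3.16 (log2) in the same order, each called.

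AKR1C1 and AKR1C2, the near-identical pair that reduces dihydrotestosterone and progesterone, followed AKR1C3 at similar low levels. AKR1C1 had 0.0831, 0.0773 and 0.0763 rescaled TPM in sgOGDHL_1 Enza, against 0.0230, 0.0108 and 0.0231 in sgOGDHL_1 DMSO. It had 0.167, 0.0902 and 0.129 in sgOGDHL_2 Enza, against 0.0615, 0.0713 and 0.0593 in sgOGDHL_2 DMSO, and 0.142, 0.160 and 0.106 in sgAAVS Enza, against 0.0148, 0.0125 and 0.00830 in sgAAVS DMSO. Within each guide the Enza libraries were above the DMSO libraries, while sgOGDHL_2 Enza and sgAAVS Enza overlapped. AKR1C2 had 0.0696, 0.0493 and 0.0779 in sgOGDHL_1 Enza, against 0.0124, 0.0105 and 0.0157 in sgOGDHL_1 DMSO. It had 0.0709, 0.0804 and 0.0690 in sgOGDHL_2 Enza, against 0.0289, 0.0257 and 0.0219 in sgOGDHL_2 DMSO, and 0.0801, 0.0818 and 0.112 in sgAAVS Enza, against 0.0123, 0.0158 and 0.0133 in sgAAVS DMSO. Here too Enza and DMSO libraries of a guide did not overlap, and sgOGDHL_2 Enza overlapped with both other Enza groups. The sum of the pair averaged 0.145 ± 0.0155 in sgOGDHL_1 Enza and 0.0318 ± 0.00929 in sgOGDHL_1 DMSO, 0.202 ± 0.0337 in sgOGDHL_2 Enza and 0.0895 ± 0.00794 in sgOGDHL_2 DMSO, and 0.227 ± 0.0124 in sgAAVS Enza and 0.0256 ± 0.00357 in sgAAVS DMSO (SD, n = 3 each). Limma without a filter called AKR1C1 higher in Enza in sgOGDHL_1 (0.083 ± 0.0199, adjusted p = 0.00527), sgOGDHL_2 (0.085 ± 0.0199, adjusted p = 0.00195) and sgAAVS cells (0.17 ± 0.0199, adjusted p = 1.04e-05). It called AKR1C2 higher as well, in sgOGDHL_1 (0.073 ± 0.0106, adjusted p = 9.85e-05), sgOGDHL_2 (0.066 ± 0.0106, adjusted p = 8.19e-05) and sgAAVS cells (0.11 ± 0.0106, adjusted p = 1.70e-06).

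SRD5A1, the reductase that acts on androstenedione and testosterone, was lower in Enza with each guide. It had 2.30, 2.18 and 2.23 rescaled TPM in sgOGDHL_1 Enza, against 2.60, 2.76 and 2.60 in sgOGDHL_1 DMSO. It had 1.95, 1.96 and 1.93 in sgOGDHL_2 Enza, against 2.68, 2.73 and 2.95 in sgOGDHL_2 DMSO, and 1.81, 1.82 and 1.85 in sgAAVS Enza, against 2.39, 2.38 and 2.48 in sgAAVS DMSO. From low to high the groups ran sgAAVS Enza, sgOGDHL_2 Enza, sgOGDHL_1 Enza, sgAAVS DMSO, sgOGDHL_1 DMSO and sgOGDHL_2 DMSO, and only the last 2 overlapped. By limma SRD5A1 fell with the drug in sgOGDHL_1 (-0.18 ± 0.0296, adjusted p = 2.21e-04), in sgOGDHL_2 (-0.36 ± 0.0296, adjusted p = 3.43e-08) and in sgAAVS cells (-0.27 ± 0.0296, adjusted p = 1.87e-06). In sgOGDHL_1 cells the change turned round on TPM as deposited (0.041, adjusted p = 0.773).

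SRD5A3, the dolichol enzyme and the most abundant of the 10, was lower in Enza with 2 of the 3 guides. It had 8.33, 7.97 and 8.15 rescaled TPM in sgOGDHL_1 Enza, against 12.9, 11.6 and 10.9 in sgOGDHL_1 DMSO. It had 8.16, 7.88 and 8.08 in sgOGDHL_2 Enza, against 7.63, 7.53 and 7.83 in sgOGDHL_2 DMSO, and 7.97, 7.65 and 7.54 in sgAAVS Enza, against 10.5, 10.9 and 10.9 in sgAAVS DMSO. The 3 Enza groups and sgOGDHL_2 DMSO lay within 7.53 to 8.33, with neighbours overlapping, and the DMSO groups of sgOGDHL_1 and sgAAVS overlapped above 10. By limma SRD5A3 fell in Enza in sgOGDHL_1 (-0.48 ± 0.0455, adjusted p = 7.89e-07) and in sgAAVS cells (-0.43 ± 0.0455, adjusted p = 1.43e-06). In sgOGDHL_2 cells the change was 0.061 ± 0.0455, adjusted p = 0.237 (95% interval -0.036 to 0.16). The call in sgOGDHL_1 cells was lost on TPM as deposited (-0.19, adjusted p = 0.243), and in sgOGDHL_2 cells a rise was called with quantile normalization (0.18, adjusted p = 0.00579) and without sgOGDHL_1 DMSO replicate 1 (adjusted p = 0.0450).

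HSD17B6, which regenerates dihydrotestosterone from a diol, was lower in Enza in every guide. It had 0.289, 0.333 and 0.312 rescaled TPM in sgOGDHL_1 Enza, against 0.539, 0.535 and 0.550 in sgOGDHL_1 DMSO. It had 0.165, 0.158 and 0.202 in sgOGDHL_2 Enza, against 0.440, 0.414 and 0.420 in sgOGDHL_2 DMSO, and 0.179, 0.163 and 0.161 in sgAAVS Enza, against 0.420, 0.447 and 0.431 in sgAAVS DMSO. The sgOGDHL_2 and sgAAVS groups overlapped with each other in Enza and in DMSO, and each sgOGDHL_1 group lay above them in the same treatment. The ratio of mean Enza to mean DMSO was 0.576 in sgOGDHL_1, 0.412 in sgOGDHL_2 and 0.387 in sgAAVS cells. Limma without a filter called the fall in sgOGDHL_1 (-0.23 ± 0.0151, adjusted p = 3.83e-08), sgOGDHL_2 (-0.28 ± 0.0151, adjusted p = 1.00e-09) and sgAAVS cells (-0.30 ± 0.0151, adjusted p = 1.55e-09). On TPM as deposited the call in sgOGDHL_1 cells was lost (-0.14, adjusted p = 0.0695).

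HSD17B11, which oxidises diols to weaker steroids, had the lowest ratio of Enza to DMSO of the 10 in sgAAVS and sgOGDHL_1 cells. It had 0.311, 0.315 and 0.292 rescaled TPM in sgOGDHL_1 Enza, against 1.16, 1.03 and 1.03 in sgOGDHL_1 DMSO. It had 0.327, 0.332 and 0.371 in sgOGDHL_2 Enza, against 0.671, 0.588 and 0.754 in sgOGDHL_2 DMSO, and 0.333, 0.355 and 0.319 in sgAAVS Enza, against 1.01, 0.977 and 0.960 in sgAAVS DMSO. The 3 Enza groups lay within 0.292 to 0.371, sgOGDHL_2 DMSO was between them and the other DMSO groups, and sgOGDHL_1 DMSO was just above sgAAVS DMSO. The ratio of mean Enza to mean DMSO was 0.286 in sgOGDHL_1, 0.512 in sgOGDHL_2 and 0.341 in sgAAVS cells. Because the filter passed it through its high DMSO libraries, its test is given from the fit without a filter. There HSD17B11 fell in sgOGDHL_1 (-0.66 ± 0.0321, adjusted p = 1.62e-09), in sgOGDHL_2 (-0.31 ± 0.0321, adjusted p = 9.31e-07) and in sgAAVS cells (-0.57 ± 0.0321, adjusted p = 4.25e-09).

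HSD17B4, the peroxisomal enzyme, was the only filtered enzyme called higher in Enza. It had 4.36, 4.38 and 4.59 rescaled TPM in sgOGDHL_1 Enza, against 3.81, 3.54 and 3.20 in sgOGDHL_1 DMSO. It had 4.47, 4.29 and 4.35 in sgOGDHL_2 Enza, against 3.01, 2.96 and 3.08 in sgOGDHL_2 DMSO, and 3.97, 4.04 and 4.07 in sgAAVS Enza, against 3.22, 3.15 and 3.20 in sgAAVS DMSO. The 3 Enza groups were above the 3 DMSO groups, sgOGDHL_1 Enza and sgOGDHL_2 Enza overlapped, and the sgOGDHL_1 DMSO libraries were the most spread. By limma it rose in sgOGDHL_1 (0.27 ± 0.0391, adjusted p = 5.30e-05), in sgOGDHL_2 (0.42 ± 0.0391, adjusted p = 1.49e-07) and in sgAAVS cells (0.26 ± 0.0391, adjusted p = 4.79e-05). On TPM as deposited the calls in sgOGDHL_2 cells (0.17, adjusted p = 0.184) and in sgAAVS cells (0.20, adjusted p = 0.198) were lost.

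**Figure D2:**
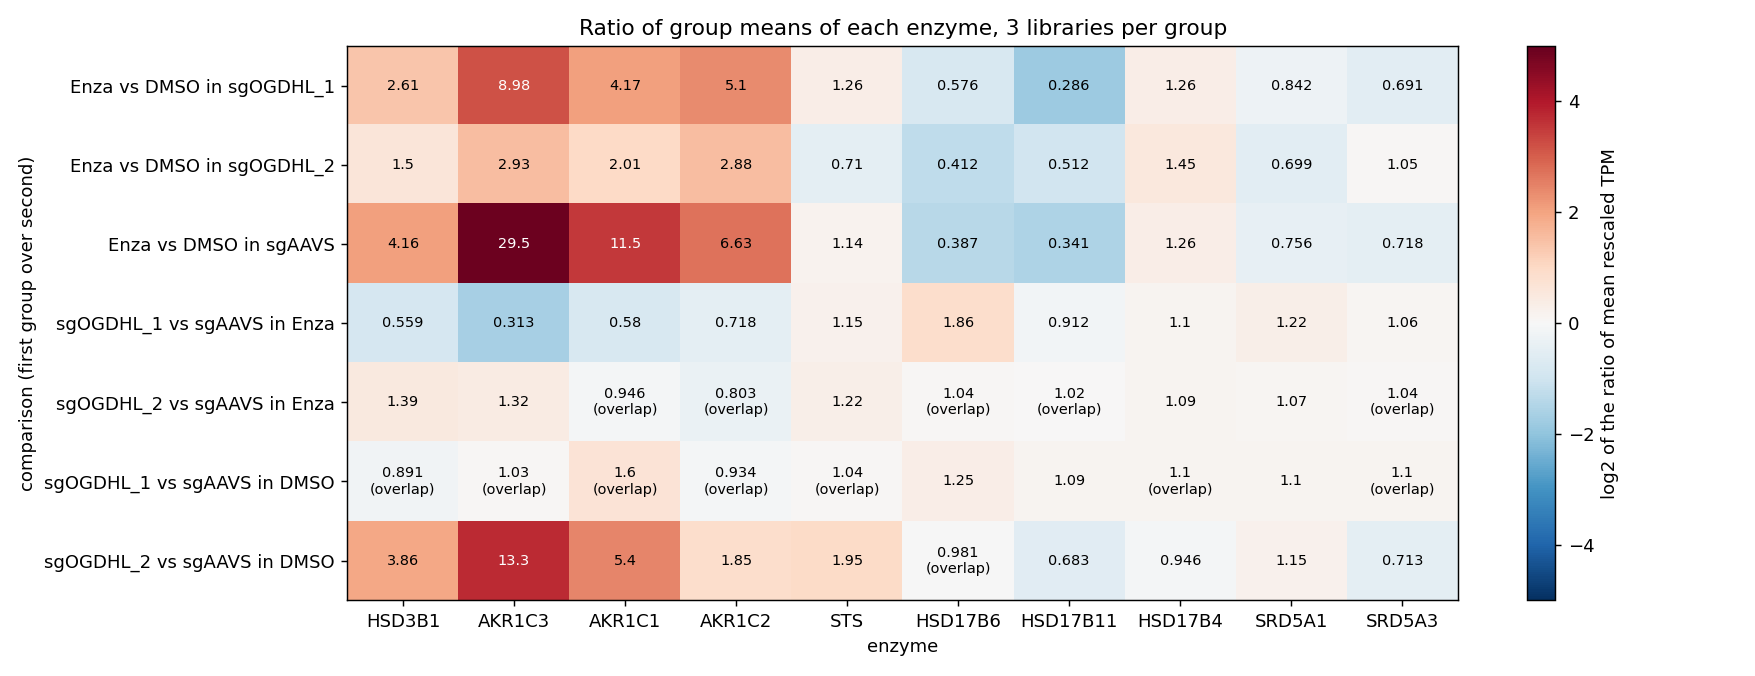
Ratio of mean rescaled TPM, first group over second, for 7 comparisons (rows) and the 10 enzymes (columns); colour is log2 of the ratio and "overlap" marks pairs of groups whose 3 and 3 libraries overlap. In sgAAVS cells the ratio of Enza to DMSO runs from 0.341 (HSD17B11) to 29.5 (AKR1C3), and in Enza the ratio of sgOGDHL_1 to sgAAVS is 0.313 for AKR1C3 and 1.86 for HSD17B6.

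The next question was whether a guide against OGDHL changed the enzymes in cells kept in Enza. With sgOGDHL_1 the AKR1C genes and HSD3B1 were lower than with sgAAVS and HSD17B6 and SRD5A1 were higher, and the means of these 6 lay between those of sgAAVS Enza and sgAAVS DMSO. So did that of SRD5A3. The means of HSD17B4 (4.45 rescaled TPM), STS (0.110) and HSD17B11 (0.306) lay beyond those of sgAAVS Enza (4.03, 0.0955 and 0.336), away from sgAAVS DMSO. All 3 sgOGDHL_1 libraries were above all 3 sgAAVS libraries for 5 enzymes and below them for 5, against 19.1% and 26.1% of all symbols. Limma called 2 of the 4 filtered enzymes (35.8% of 13416 symbols) and, without a filter, 8 of 10 (25.9% of 26900). With sgOGDHL_2 the libraries were above those of sgAAVS for 5 enzymes and below for 0 (22.3% and 14.6% of symbols), and limma called 0 of the 4 filtered enzymes (18.1% of symbols) and 3 of 10 without a filter (13.9%). Of the 4, 1 had an unadjusted p under 0.05, HSD17B4. The 2 guides share the sgAAVS libraries as controls, so their results are not independent.

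AKR1C3 and HSD3B1 and, less firmly, AKR1C1 and AKR1C2 were lower with sgOGDHL_1 in Enza. AKR1C3 averaged 0.0354 ± 0.00608 rescaled TPM in sgOGDHL_1 Enza and 0.113 ± 0.00803 in sgAAVS Enza (SD, n = 3 each), a ratio of 0.313, and limma without a filter called it lower (-0.10 ± 0.00592, adjusted p = 1.44e-08). HSD3B1 averaged 0.346 ± 0.0273 in sgOGDHL_1 Enza and 0.619 ± 0.0776 in sgAAVS Enza, a ratio of 0.559, and was called lower (-0.27 ± 0.0365, adjusted p = 8.58e-05). Both calls held in each of the alternatives run for them. AKR1C1 had a ratio of 0.580 (-0.074 ± 0.0199, adjusted p = 0.0132) and AKR1C2 one of 0.718 (-0.034 ± 0.0106, adjusted p = 0.0277). These 2 calls were less firm. With the replicate number as a block among these 6 libraries, AKR1C1 had an adjusted p of 0.0695 and AKR1C2 one of 0.0887, and without sgAAVS Enza replicate 2 AKR1C1 had one of 0.0665. The AKR1C2 call was lost without sgAAVS Enza replicate 3 (adjusted p = 0.111), without sgOGDHL_1 Enza replicate 2 (adjusted p = 0.131), in a fit of these 6 libraries alone (adjusted p = 0.189), with quantile normalization (adjusted p = 0.183) and with a pseudocount of 0.01 (-0.43, adjusted p = 0.0656).

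Other enzymes were higher with sgOGDHL_1 in Enza. HSD17B6 averaged 0.312 ± 0.0221 rescaled TPM in sgOGDHL_1 Enza and 0.168 ± 0.00980 in sgAAVS Enza (SD, n = 3 each), a ratio of 1.86, and was called by limma without a filter (0.17 ± 0.0151, adjusted p = 1.55e-06) but not on TPM as deposited (0.15, adjusted p = 0.0767). SRD5A1 averaged 2.23 ± 0.0598 in sgOGDHL_1 Enza and 1.83 ± 0.0208 in sgAAVS Enza and rose by limma (0.19 ± 0.0296, adjusted p = 1.24e-04), again not on TPM as deposited (0.14, adjusted p = 0.547). HSD17B4 passed narrowly (0.12 ± 0.0391, adjusted p = 0.0330), and leaving out any sgAAVS Enza library, or replicate 2 or 3 of sgOGDHL_1 Enza, ended that call, with adjusted p up to 0.122, as did TPM as deposited (0.054, adjusted p = 0.859) and a fit without the sgOGDHL_2 DMSO libraries (adjusted p = 0.0523). STS was higher by a ratio of 1.15 (0.019 ± 0.00349, adjusted p = 8.84e-04), which ended on TPM as deposited (0.012, adjusted p = 0.771) and with a pseudocount of 0.01 (0.19, adjusted p = 0.0852). HSD17B11 in the fit without a filter (-0.032 ± 0.0321, adjusted p = 0.569, 95% interval -0.10 to 0.037) and SRD5A3 (0.07 ± 0.0455, adjusted p = 0.259, 95% interval -0.028 to 0.17) were not called. KLK3 was 849 rescaled TPM in sgOGDHL_1 Enza and 56.4 in sgAAVS Enza. Its part in the changes of the enzymes was not tested.

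With sgOGDHL_2 in Enza, 3 of the lowly expressed enzymes were called higher by limma without a filter (8.96% of symbols were). HSD3B1 was higher by a ratio of 1.39 (0.20 ± 0.0365, adjusted p = 0.00173), AKR1C3 by 1.32 (0.046 ± 0.00592, adjusted p = 1.14e-04) and STS by 1.22 (0.027 ± 0.00349, adjusted p = 1.07e-04). Each of these calls was lost on TPM as deposited, with adjusted p of 0.205 for HSD3B1, 0.167 for AKR1C3 and 0.800 for STS, and quantile normalization ended that of STS too (0.0096, adjusted p = 0.403). AKR1C3 was not called with a pseudocount of 0.01 (0.37, adjusted p = 0.0748), and HSD3B1 was not in a fit of these 6 libraries alone (adjusted p = 0.0558). Of the filtered enzymes SRD5A1 had a change of 0.059 ± 0.0296, adjusted p = 0.204, SRD5A3 0.052 ± 0.0455, adjusted p = 0.512, and HSD17B4 0.10 ± 0.0391, adjusted p = 0.117. HSD17B11, in the fit without a filter, had 0.0083 ± 0.0321, adjusted p = 0.952. Without sgOGDHL_1 DMSO replicate 1 HSD17B4 passed (adjusted p = 0.0332), and without sgOGDHL_1 DMSO replicate 3 as well (adjusted p = 0.0150). Between the 2 OGDHL guides in Enza, the ratio of sgOGDHL_2 to sgOGDHL_1 means was 4.22 for AKR1C3, 2.50 for HSD3B1 and 0.561 for HSD17B6, with no overlap of libraries in any of the 3. Over the 10 enzymes, sgOGDHL_2 Enza was above sgOGDHL_1 Enza without overlap for 5 and below it for 2, against 35.6% and 19.2% of all symbols. This pair of guides was not tested.

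**Figure D3:**
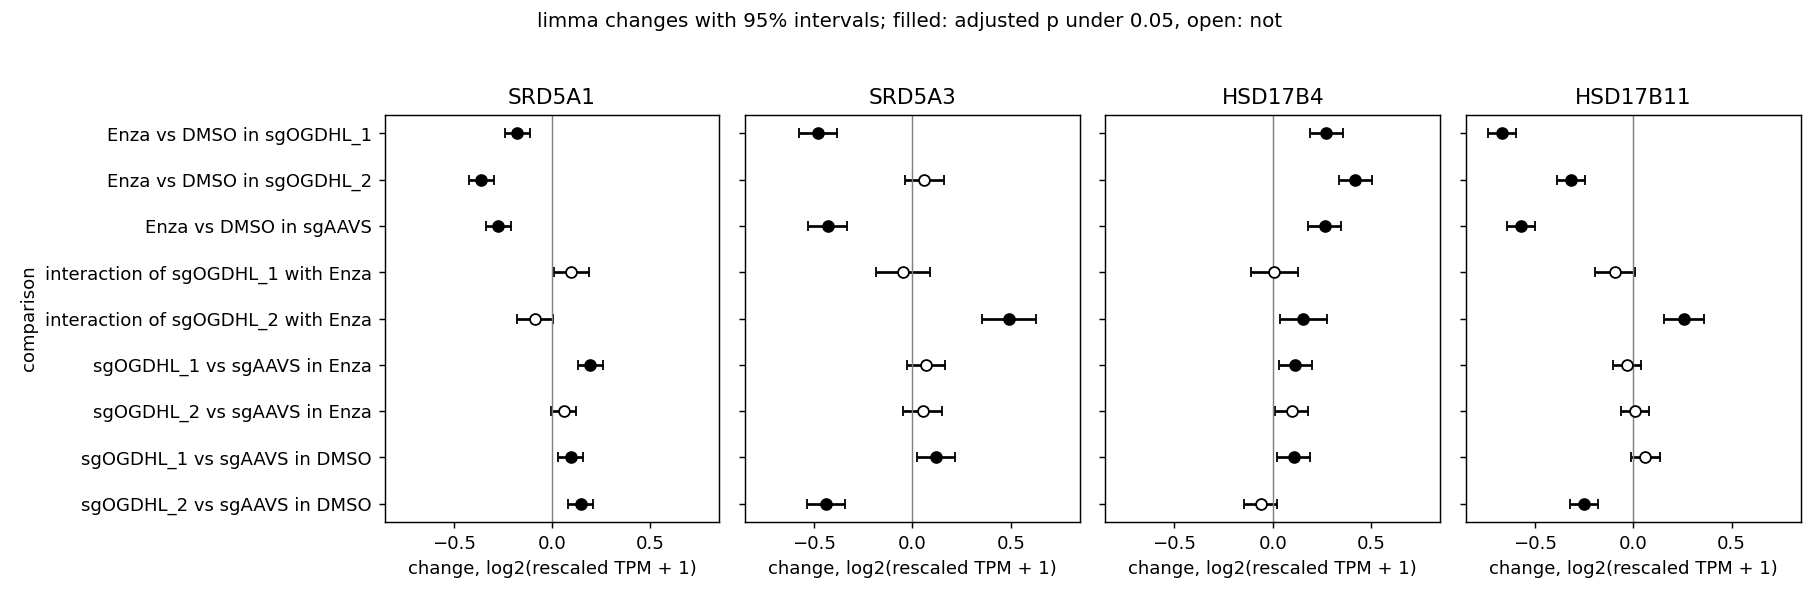
Change in log2(rescaled TPM + 1) of the 4 enzymes that passed the filter, with 95% intervals from limma, in 9 comparisons (rows); filled points have an adjusted p under 0.05. HSD17B11 passed the filter only through DMSO libraries. SRD5A3 falls with Enza by 0.48 in sgOGDHL_1 and 0.43 in sgAAVS cells, whereas its interval in sgOGDHL_2 cells spans 0.

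In DMSO, sgOGDHL_1 made little difference to the enzymes. Its libraries were above those of sgAAVS for 3 enzymes (HSD17B6, HSD17B11 and SRD5A1) and below for 0, against 15.1% and 11.1% of symbols. Limma called 3 of the 4 filtered enzymes (44.2% of 13416 symbols) and 2 of 10 without a filter (19.9%). HSD17B4 (0.11 ± 0.0391, adjusted p = 0.0407), SRD5A1 (0.10 ± 0.0296, adjusted p = 0.0229) and SRD5A3 (0.12 ± 0.0455, adjusted p = 0.0472) were called higher by small margins, where 22.8% of symbols were called higher. On TPM as deposited, where the median of all genes moved by -0.322, the changes turned to -0.25, -0.23 and -0.31 in the same order. None of the 3 was called in a fit of these 6 libraries alone, with adjusted p of 0.266, 0.222 and 0.271, where 0 of all 13416 symbols were called. Leaving out any sgAAVS DMSO library, or replicate 1 or 2 of sgOGDHL_1 DMSO, ended all 3 calls, with adjusted p up to 0.206. The fit of all 18 libraries called 5924 symbols. Leaving out sgAAVS DMSO replicate 1, 2 or 3 left 1902, 4452 and 488, and sgOGDHL_1 DMSO replicate 1 or 2 left 970 and 425. The loss was thus not particular to the enzymes. Without sgOGDHL_1 DMSO replicate 3 the count was instead 8996. The sgOGDHL_1 DMSO libraries were uneven. Mitochondrially encoded transcripts took 73.8%, 69.9% and 57.2% of TPM in replicates 1, 2 and 3, with rescaling factors of 0.622, 0.736 and 1.07. The part of this unevenness in the calls was not tested. Over the 18 fits that each left out a library, SRD5A1 stayed called in 13, HSD17B4 in 10 and SRD5A3 in 1. Without a filter HSD17B4 (adjusted p = 0.0597) and SRD5A3 (adjusted p = 0.0699) were not called either. HSD17B6 had a ratio of 1.25 (0.10 ± 0.0151, adjusted p = 0.00292), which turned to -0.039 (adjusted p = 0.624) on TPM as deposited and was not called in the 6 libraries alone (adjusted p = 0.223). HSD17B11 (0.062 ± 0.0321, adjusted p = 0.186, 95% interval -0.0068 to 0.13) was not called in the fit without a filter, nor were HSD3B1 (-0.02 ± 0.0365, adjusted p = 0.791), AKR1C1 (0.01 ± 0.0199, adjusted p = 0.816), AKR1C2 (-0.0013 ± 0.0106, adjusted p = 0.981), AKR1C3 (0.00016 ± 0.00592, adjusted p = 1) and STS (0.0049 ± 0.00349, adjusted p = 0.365).

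The DMSO libraries labelled sgOGDHL_2 differed from sgAAVS DMSO at more enzymes. They were above for 6 enzymes and below for 3, in a comparison where 49.2% and 23.8% of all symbols were so separated. Limma called 3 of the 4 filtered enzymes (77.3% of 13416 symbols) and 7 of 10 without a filter (65.2%). HSD17B11, among the 3, had passed the filter only through DMSO libraries of sgAAVS and sgOGDHL_1, where it is high. HSD3B1 had a ratio of 3.86 (0.45 ± 0.0365, adjusted p = 6.82e-08), AKR1C3 one of 13.3 (0.066 ± 0.00592, adjusted p = 2.17e-07), AKR1C1 one of 5.40 (0.072 ± 0.0199, adjusted p = 0.00544) and STS one of 1.95 (0.10 ± 0.00349, adjusted p = 5.20e-12). AKR1C2, with a ratio of 1.85, was not called (0.017 ± 0.0106, adjusted p = 0.189) with a pseudocount of 1 but was with one of 0.01 (0.58, adjusted p = 0.00579), and HSD17B6, with a ratio of 0.981, was not either (-0.0084 ± 0.0151, adjusted p = 0.656). SRD5A3 was lower (-0.44 ± 0.0455, adjusted p = 4.21e-07), as was HSD17B11 in the fit without a filter (-0.25 ± 0.0321, adjusted p = 9.81e-06), SRD5A1 was higher (0.15 ± 0.0296, adjusted p = 3.89e-04) and HSD17B4 did not pass (-0.061 ± 0.0391, adjusted p = 0.171). The SRD5A1 call ended on TPM as deposited (0.25, adjusted p = 0.0534), and with quantile normalization the change was -0.016 (adjusted p = 0.646). With quantile normalization STS turned to -0.0048 (adjusted p = 0.523) and the AKR1C1 call was lost (0.021, adjusted p = 0.411), while HSD17B4 (-0.22, adjusted p = 4.11e-04) and HSD17B6 (-0.18, adjusted p = 2.40e-07) were called lower. In these 3 libraries the leukocyte and macrophage marker CD68 was 8.34, 8.21 and 10.1 rescaled TPM, against 0.636, 0.529 and 0.406 in sgAAVS DMSO, and the nuclear RNA NEAT1 was at 229 to 263, against 76.7 to 83.3. CD68 was chosen from 3 leukocyte markers; the other 2, PTPRC and CD3E, were each at 0 in some of the 18 libraries, and the sum of the 3 was 8.22 to 10.15 in these libraries, against 0.409 to 0.639 in sgAAVS DMSO. Their part in the differences was not tested.

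Whether the drug acted differently with a guide was tested as an interaction, the change with Enza in that guide less the change in sgAAVS cells. With sgOGDHL_1, 0 of the 4 filtered enzymes passed in limma, and 1, SRD5A1, had an unadjusted p under 0.05 (0.10 ± 0.0418, adjusted p = 0.0845; with quantile normalization it was called, 0.13, adjusted p = 0.0429), while 33.9% of symbols passed. Without a filter 3 of 10 passed (22.6% of symbols), all lower (14% of symbols were). AKR1C3 had an interaction of -0.10 ± 0.00838, adjusted p = 8.85e-07 and HSD3B1 one of -0.25 ± 0.0516, adjusted p = 0.00358, which is to say that their rise with Enza was smaller with sgOGDHL_1. AKR1C1 passed narrowly (-0.084 ± 0.0281, adjusted p = 0.0467) and stayed called in only 3 of 18 fits that each left out a library, with adjusted p up to 0.112. It was also lost on TPM as deposited (adjusted p = 0.135), with quantile normalization (adjusted p = 0.0794), with a pseudocount of 5 (adjusted p = 0.0513) and without the sgOGDHL_2 DMSO libraries (adjusted p = 0.0727). The HSD3B1 interaction was lost on TPM as deposited (-0.22, adjusted p = 0.0980). HSD17B6 (0.063 ± 0.0214, adjusted p = 0.0506) passed with a pseudocount of 0.01 (0.54, adjusted p = 0.00676), and STS (0.014 ± 0.00494, adjusted p = 0.0531) and AKR1C2 (-0.033 ± 0.0149, adjusted p = 0.139) were not called.

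With sgOGDHL_2, limma passed 3 of the 4 filtered enzymes (66.1% of symbols) and 7 of 10 without a filter (53.8%). SRD5A3 (0.49 ± 0.0643, adjusted p = 8.66e-06), HSD17B11 (0.26 ± 0.0453, adjusted p = 2.69e-04 in the fit without a filter) and HSD17B4 (0.16 ± 0.0554, adjusted p = 0.0225) had positive interactions. With the filter 27.6% of symbols did so, and without it 17.6%. HSD17B11 counts among the filtered enzymes only through DMSO libraries of sgAAVS and sgOGDHL_1, where it is high. HSD3B1 (-0.25 ± 0.0516, adjusted p = 9.10e-04), STS (-0.075 ± 0.00494, adjusted p = 1.39e-08), AKR1C1 (-0.082 ± 0.0281, adjusted p = 0.0243) and AKR1C2 (-0.04 ± 0.0149, adjusted p = 0.0349) had negative ones, as 36.3% of symbols did without a filter. SRD5A1 (-0.086 ± 0.0418, adjusted p = 0.0827), AKR1C3 (-0.02 ± 0.00838, adjusted p = 0.0599) and HSD17B6 (0.017 ± 0.0214, adjusted p = 0.533) were not called. With a pseudocount of 0.01, closer to its level, AKR1C3 was called (-1.77, adjusted p = 1.44e-06), with ratios of Enza to DMSO of 2.93 in sgOGDHL_2 and 29.5 in sgAAVS cells. On TPM as deposited 0 of the 4 filtered enzymes passed, with adjusted p of 0.233 for SRD5A3, 0.113 for HSD17B11 and 0.870 for HSD17B4. On that scale 5849 of 13416 symbols passed. All of these rest on the DMSO libraries labelled sgOGDHL_2, which stand apart, and no such interaction can be had without them. Removal of the mitochondrially encoded genes ended the HSD17B4 call (0.038, adjusted p = 0.576). That alternative also scaled each library to the total of its remaining symbols, without median-of-ratios factors. With it the median change over all genes moved from -0.064 to -0.219. Leaving out sgOGDHL_2 DMSO replicate 2 or sgOGDHL_2 Enza replicate 1 ended the HSD17B4 call too, with adjusted p of 0.0544 and 0.0528. Quantile normalization ended the calls of HSD3B1, AKR1C1 and AKR1C2, turned STS to 0.014 (adjusted p = 0.190) and called HSD17B6 (0.17, adjusted p = 2.46e-05). The AKR1C1 call ended in a fit of the contrast's own libraries (adjusted p = 0.0594); it held in 14 of 18 fits that each left out a library and the AKR1C2 call in 10. No enzyme's group means spanned 1 or more on the log2(rescaled TPM + 1) scale (the widest, HSD3B1, spanned 0.72), so no genes of like pattern are named. An enzyme under 1 rescaled TPM in every library cannot span 1 on this scale, however large its ratio. AKR1C3, for example, spanned 0.195.

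Genes around the enzymes were read from 8 lists, and their counts in sgAAVS cells, Enza against DMSO, stand beside the 27.5% of 13416 symbols that were called higher and the 24.7% that were called lower, with a median change of 0.0098 over all. Androgen glucuronidation, which clears androgens, had 6 of 7 genes tested, 0 called higher and 6 lower, and its median change was -3.07. UGT2B11 averaged 1.97 ± 0.377 rescaled TPM in sgAAVS Enza and 183 ± 1.77 in sgAAVS DMSO (-5.96, adjusted p = 7.55e-17), and UGT2B28 (-5.04, adjusted p = 8.82e-19) and UGT2B10 (-3.46, adjusted p = 8.32e-17) followed. These were named for the size of their change. UGT2B15 (-2.68, adjusted p = 2.82e-16) and UGT2B17 (-2.15, adjusted p = 1.08e-15) fell by less. Clearance of androgens was not measured. The UGT2B genes are close relatives, so reads may be split between them. Of 13 androgen-responsive genes, 0 were called higher and 12 lower (median -1.53). SLC45A3 (-3.67, adjusted p = 2.43e-13), KLK3 (-2.60, adjusted p = 3.76e-14) and ACSL3 (-2.54, adjusted p = 4.47e-13), the last a fatty acid activating enzyme, fell most.

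The steps that lead up to androgens were sparsely expressed, with 5 of 11 genes tested, 1 called higher and 2 lower (median 0.090). FDX1, which passes electrons to mitochondrial steroid enzymes, rose (0.58, adjusted p = 7.30e-09). CYB5A, a helper of the androgen-forming reaction of CYP17A1, fell (-0.62, adjusted p = 4.65e-11), as did POR, which passes electrons to microsomal P450 enzymes (-0.18, adjusted p = 0.0323). Among the other hydroxysteroid and reductase enzymes 5 of 16 were tested, 1 called higher and 2 lower (median -0.23). HSD17B7, which works mainly in cholesterol synthesis, averaged 2.61 ± 0.0307 in sgAAVS Enza and 7.49 ± 0.180 in sgAAVS DMSO (-1.23, adjusted p = 6.81e-13), HSD17B10 fell (-0.41, adjusted p = 0.00166) and HSD17B1, the estradiol-forming enzyme, rose (0.46, adjusted p = 0.00520). Of 7 sulfation genes 2 were tested and 0 called by limma; both, PAPSS1 and SUMF2, had adjusted p above the threshold (-0.037, adjusted p = 0.292 and -0.24, adjusted p = 0.0659). In the 9 dolichol genes beside SRD5A3, 1 was called higher and 6 lower (median -0.21), with DPAGT1 (-0.71, adjusted p = 5.30e-08), ALG5 (-0.38, adjusted p = 3.88e-06) and DPM3 (-0.35, adjusted p = 4.58e-04) the largest. Peroxisomal fatty acid oxidation, the pathway of HSD17B4, had 8 of 9 tested, 4 called higher and 1 lower (median 0.12), with HACL1 (0.48, adjusted p = 1.18e-07) and AMACR (0.28, adjusted p = 0.00113) higher and ACOX2, the bile acid oxidase, lower (-0.77, adjusted p = 1.15e-12).

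The AKR1C genes are also known as targets of the stress factor NRF2, so its other targets were listed. In sgAAVS cells 12 of 16 were tested, 1 was called higher (NQO1, 0.14, adjusted p = 0.0245) and 7 lower (median -0.27), led by ME1 (-0.80, adjusted p = 4.28e-10), PGD (-0.77, adjusted p = 9.30e-11) and TKT (-0.56, adjusted p = 7.51e-06). With sgOGDHL_1 against sgAAVS in Enza, 7 NRF2 targets were called higher and 1 lower (median 0.23), where 16.7% of 13416 symbols were called higher and 19.1% lower and the median over all was -0.011. Without a filter AKR1C1, AKR1C2 and AKR1C3 were called higher in the first of these comparisons and lower in the second. Both comparisons use the sgAAVS Enza libraries, on opposite sides, so they are not independent. Whether NRF2 had a part in the changes of the AKR1C genes was not tested. With sgOGDHL_1 in Enza, 11 of the 13 androgen-responsive genes were called higher and 0 lower (median 0.92), and of the peroxisomal genes 1 was called higher and 4 lower (median -0.13). The other guide differed. With sgOGDHL_2 in Enza, 3 of the 13 androgen-responsive genes were called higher and 1 lower (median 0.075). The NRF2 targets had 1 higher and 1 lower (median -0.070), and the peroxisomal genes 3 and 0 (median 0.10). In that comparison 11.2% of 13416 symbols were called higher and 6.97% lower.

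**Figure D4:**
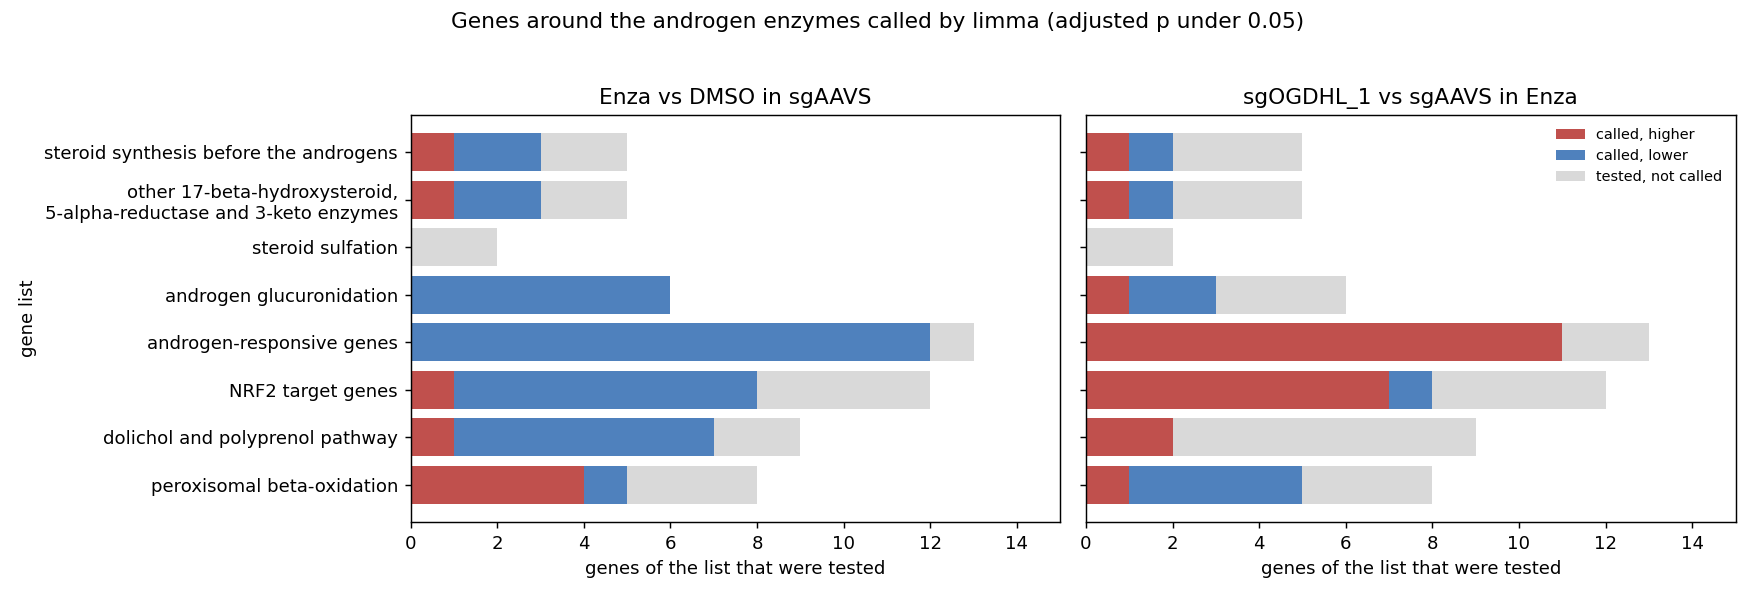
Number of tested genes in 8 lists around the enzymes that limma called higher (red), lower (blue) or did not call (grey) for Enza against DMSO in sgAAVS cells (left) and for sgOGDHL_1 against sgAAVS in Enza (right). The androgen-responsive list has 12 genes lower and 0 higher on the left and 11 higher and 0 lower on the right.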

How the data were processed

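RNA-seq libraries from 16D cells, 3 for each of 6 groups, were analysed. Per the labels' protocols, RNA from cells kept 6 weeks with 10 µM enzalutamide or DMSO was made into stranded mRNA libraries with a KAPA kit and read as paired ends. The submitters' processing notes name STAR, with no version, and GRCh38; how reads were counted, and on which annotation, is not given in the sources used here. TPM per gene symbol, with the same total in each library, is the unit of the deposited table, per the file headers and the values. Rows without a gene name (10345 of 37347, with 4.24% to 9.68% of the TPM) and 69 rows of 3 symbols were left out, and the rows of 32 symbols that had 2 to 4 were added up, leaving 26900 symbols.

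TPM was rescaled between libraries by median-of-ratios factors over 9378 symbols at 1 TPM or more in every library, because the median of all genes differed between groups on the deposited scale, beside a mitochondrial share that differed between libraries. limma 3.58.1 (R 4.3.3, trended prior) was fitted to log2(rescaled TPM + 1), pseudocount 1, of all 18 libraries with a mean per group, on 13416 symbols at 1 deposited TPM or more in at least 3 libraries, in 9 contrasts. The enzymes, lists, tests and rule for named genes (all 10 enzymes, and of each list up to 3 called genes with the largest change in sgAAVS cells; OGDHL and KLK3 as checks) were chosen with earlier results of these data known. PAPSS1, SUMF2, NQO1, UGT2B15, UGT2B17, CD68 and NEAT1 were named after their values were seen. In some lists a gene is not reported here and is left out of the counts. Replicate numbers paired 1 of 15 pairs of groups, sgOGDHL_1 Enza with sgAAVS Enza, by correlation alone (same-number deviations correlated at 0.21, 0.12 and 0.19), and a block was an alternative. Over all 15 pairs such correlations ran from -0.42 to 0.21, so they do not establish a pairing. Alternatives also took a pseudocount of 0.1, 5 or 0.01, a filter at 5 TPM or none, TPM as deposited, quantile normalization, removal of 37 mitochondrially encoded symbols, a contrast's own libraries, a fit without sgOGDHL_2 DMSO, and leaving out each library. The removal went with scaling each library to the same total of its remaining symbols, in place of median-of-ratios factors. The check of pairing, the pseudocount of 0.01, the block within 6 libraries and the alternatives of the fit without a filter were chosen after seeing the data. The procedure was tested on simulated data with 200 changed genes of 13416 for Enza against DMSO in sgAAVS cells, where it recovered 86.2%, 96.4% and 99.7% of changes of 0.5, 1 and 2 (log2). Of the genes it called, 5.14% were not among the changed ones. The simulated noise was normal, independent between libraries and of the same spread in every group. These rates therefore do not cover groups of unlike spread, data with many more changed genes or the fit without a filter. Promoters come from RefSeq (9 of 10 enzymes matched) and positions from GENCODE 29. Python 3.11.15, numpy 2.4.6, pandas 2.3.3, Biopython 1.88 and matplotlib 3.10.9 were used.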

Additional observations from a re-analysis of the deposited data

Results flagged for a closer look

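A difference between guides in the effect of Enza, tested as an interaction in limma, stood out for 8 enzymes in 10 results. Such differences are common: without a filter 22.6% of all symbols passed with sgOGDHL_1 and 53.8% with sgOGDHL_2, and with the filter 66.1% passed with sgOGDHL_2. Each value is the change with Enza in the guide less that in sgAAVS cells on log2(rescaled TPM + 1). With sgOGDHL_1 they were AKR1C3 at -0.10, HSD3B1 at -0.25 and AKR1C1 at -0.084. With sgOGDHL_2 they were HSD3B1 at -0.25, AKR1C1 at -0.082, STS at -0.075, AKR1C2 at -0.040, SRD5A3 at 0.49, HSD17B11 at 0.26 and HSD17B4 at 0.16. The results with sgOGDHL_2 rest on its DMSO libraries, in which OGDHL was not below sgAAVS DMSO. HSD3B1 averaged 0.863 rescaled TPM in sgOGDHL_2 Enza, 0.346 in sgOGDHL_1 Enza and 0.619 in sgAAVS Enza, and in DMSO 0.574, 0.133 and 0.149 in the same order of guides. AKR1C3 averaged 0.0354 in sgOGDHL_1 Enza and 0.113 in sgAAVS Enza, with 0.00395 in sgOGDHL_1 DMSO and 0.00383 in sgAAVS DMSO.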

How the results depend on the processing

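Counts of enzymes called moved mostly with the filter, since 6 of the 10 lie under 1 TPM. Counts with the filter at 1 TPM include HSD17B11. It passed only through DMSO libraries of sgAAVS and sgOGDHL_1, where it is high, so the filter favours its calls for Enza there. With no filter, 10 enzymes were called for Enza in sgAAVS, 10 in sgOGDHL_1 and 9 in sgOGDHL_2, 7 for sgOGDHL_2 in DMSO, 8 for sgOGDHL_1 and 3 for sgOGDHL_2 in Enza, and 3 and 7 for the interactions of sgOGDHL_1 and sgOGDHL_2. The shares of 26900 symbols were 39.1%, 34.1%, 63.4%, 65.2%, 25.9%, 13.9%, 22.6% and 53.8% in this order. With a pseudocount of 0.01 as well, the same counts were 9, 10, 9, 8, 6, 2, 4 and 8, against 41%, 35.8%, 62.6%, 65.2%, 26.4%, 13.2%, 23% and 52.4% of 26900 symbols. A filter at 5 TPM left 1 enzyme tested, SRD5A3, which gave 1, 1 and 0 calls for Enza in sgAAVS, sgOGDHL_1 and sgOGDHL_2, 1 and 1 for sgOGDHL_1 and sgOGDHL_2 in DMSO, 0 for sgOGDHL_1 in Enza and 1 for the interaction of sgOGDHL_2. Of the 7496 symbols tested there, 3965, 3764, 5692, 3845, 5934, 2800 and 5106 were called in this order. With TPM as deposited, 2 enzymes were called for Enza in sgOGDHL_1, 0 for sgOGDHL_1 in Enza and 0 for the interaction of sgOGDHL_2. In these comparisons 4007, 948 and 5849 of 13416 symbols were called on that scale. Quantile normalization called 1 for the interaction of sgOGDHL_1, against 4263 of 13416 symbols. For sgOGDHL_1 in DMSO, 0 were called in its own libraries, 1 without the sgOGDHL_2 DMSO libraries and 1 with the replicate block, against 0, 5148 and 5229 of 13416 symbols. For sgOGDHL_1 in Enza 1 was called without the sgOGDHL_2 DMSO libraries (4581 symbols were), and for sgOGDHL_2 in Enza 1 was called in its own libraries (4249 symbols were). Leaving out each library gave 4 to 4 calls for Enza in sgAAVS and in sgOGDHL_1, 3 to 4 in sgOGDHL_2, 0 to 3 for sgOGDHL_1 and 3 to 4 for sgOGDHL_2 in DMSO, 1 to 2 for sgOGDHL_1 and 0 to 1 for sgOGDHL_2 in Enza, and 0 to 0 and 2 to 4 for the interactions of sgOGDHL_1 and sgOGDHL_2. Over all symbols, 12610 to 13415 tested, the calls were 6191 to 8315, 5342 to 8875, 8686 to 10789, 425 to 8996, 9123 to 11054, 3801 to 6451, 1664 to 3792, 3602 to 7728 and 7709 to 9894 in this order. Apart from HSD17B11, the filtered enzymes SRD5A1, SRD5A3 and HSD17B4 were each called in 18 of 18 such fits for Enza in sgAAVS and in sgOGDHL_1.

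Directions that turned did so mostly on TPM as deposited. They were SRD5A1 for Enza in sgOGDHL_1 (0.041), HSD17B4 (-0.25), HSD17B11 (-0.17, adjusted p = 0.0384), SRD5A1 (-0.23), SRD5A3 (-0.31) and HSD17B6 (-0.039) for sgOGDHL_1 in DMSO, and HSD17B4 for the interaction of sgOGDHL_2 (-0.036). Quantile normalization turned SRD5A1 (-0.016) and STS (-0.0048) for sgOGDHL_2 in DMSO, and STS for Enza in sgAAVS (-0.0017), for Enza in sgOGDHL_2 (0.013) and for the interaction of sgOGDHL_2 (0.014). It also ended the interaction calls of sgOGDHL_2 for HSD3B1 (-0.11, adjusted p = 0.108), AKR1C1 (adjusted p = 0.183) and AKR1C2 (adjusted p = 0.256). Removal of the mitochondrial symbols, which also replaced the median-of-ratios factors by scaling to a total, turned HSD17B6 for sgOGDHL_2 in DMSO (0.082). It ended the HSD17B4 interaction of sgOGDHL_2 (0.038, adjusted p = 0.576). For sgOGDHL_2 in DMSO it moved the median change over all genes from 0.0824 to 0.256. TPM as deposited shifted the median of all genes by -0.32 for sgOGDHL_1 in DMSO, where it called 41 symbols higher and 7716 lower, against 3057 and 2867 on rescaled TPM, and by 0.23 and -0.30 for Enza in sgOGDHL_1 and sgOGDHL_2. The replicate block fitted to the 6 libraries of sgOGDHL_1 Enza and sgAAVS Enza left 4 of 4 filtered results on their side of the threshold and, without a filter, ended the calls of AKR1C1 and AKR1C2; over all libraries it ended the calls of HSD17B4 (adjusted p = 0.0553) and SRD5A3 (adjusted p = 0.0524) for sgOGDHL_1 in DMSO and the AKR1C1 interaction of sgOGDHL_1 (adjusted p = 0.0549). The cause of these moves was not tested. Depth is unknown from TPM, which limits the AKR1C genes and STS most, and values under 0.01 rescaled TPM may rest on few reads.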
